A study of Mus musculus with 23 samples.

Results

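Liver messenger RNA was compared at weaning between mouse pups exposed to maternal metabolic syndrome (MetS) both before birth and while nursed, the MetS-MetS group (n = 5 libraries), and pups with neither exposure, the Ct-Ct group (n = 6 libraries). These 11 libraries were chosen by the treatment in their labels, out of 23 in the series. The other 12 belong to pups exposed while nursed only (Ct-MetS, n = 6) or before birth only (MetS-Ct, n = 6). All pups were C57Bl/6J, and those of MetS-MetS and Ct-Ct were taken at postnatal day 21, as were all others but 1 MetS-Ct pup at day 22. Per the labels' protocols, the syndrome was induced by diet: dams ate food with 45% fat (MetS) or 10% fat (Ct), begun at the age of 3 weeks and kept up over 7 or 17 weeks, and litters of 5 pups were given to foster dams at birth. All pups in these groups, controls included, had therefore been raised by a dam other than their mother. Animal by animal, the sources used here give neither sex nor litter, nor the dam's time on the diet or the hour of sampling, so p-values measure only the spread between these libraries and would be too small where pups shared a litter.

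At weaning a mouse moves from milk, which is rich in fat, to solid food, which is rich in carbohydrate, and its liver is known to shift between burning fatty acids and making them. Fatty acids are burned in mitochondria and peroxisomes by enzymes whose genes are targets of the nuclear receptor PPAR-alpha, which is itself activated by fatty acids. Their synthesis from sugar depends on the transcription factors SREBP-1c, encoded by Srebf1, and ChREBP, encoded by Mlxipl, which respond to insulin and to sugars. The liver also holds resident macrophages (Kupffer cells) and, early in life, a declining population of red blood cell precursors.

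Totals were 16876460 to 29184628 counts per library in MetS-MetS and 25006606 to 28675811 in Ct-Ct. Hepatocyte markers summed to 176000 to 193000 CPM (counts scaled to the size of the library, with TMM factors) in MetS-MetS and 146000 to 185000 CPM in Ct-Ct. None of the 17 measured markers passed the edgeR test described below, while 6 had an unadjusted p under 0.05 and DESeq2 called 2. MetS-MetS_110 stood apart. It carried transcripts of skeletal muscle, at a summed 1740 CPM against 25.9 to 36.2 CPM in the other MetS-MetS libraries and 30.3 to 38.5 CPM in Ct-Ct, and of squamous epithelium, at 1200 CPM against 197 to 269 CPM in the other MetS-MetS libraries and 179 to 249 CPM in Ct-Ct. Results are therefore given with and without it. Further features are described where they touch a result: MetS-MetS_39 was far from its group in several PPAR-alpha targets, and Ct-Ct_129 and Ct-Ct_139 had the highest levels of most lipid-synthesis genes.

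A gene is said to have risen, fallen or been called where edgeR's quasi-likelihood test over all 23 libraries gave a Benjamini-Hochberg adjusted p under 0.05 among 14466 genes. In MetS-MetS against Ct-Ct 3528 of these genes had an unadjusted p under 0.05 with edgeR. Of the genes tested 5.78% were called, 3.06% as higher and 2.72% as lower, and DESeq2 called 9.35%. Without MetS-MetS_110 the share was 2.25%, 1.46% as higher and 0.795% as lower, and 313 of those 326 genes were among the 836 called with all libraries, which is 37.4% of them. The count depended on single libraries in both groups. Leaving out Ct-Ct_129 left 224 calls, Ct-Ct_139 left 322, Ct-Ct_4 left 422, MetS-MetS_157 left 382, MetS-MetS_154 left 536 and Ct-Ct_33 left 1355. There were 190 genes called whichever of the 11 libraries was left out, 113 higher and 77 lower. With both Ct-Ct_129 and Ct-Ct_139 left out, an alternative added after the data were seen, 21 genes were called, and with both MetS-MetS_39 and MetS-MetS_110 left out 103 were.

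**Figure D1:**
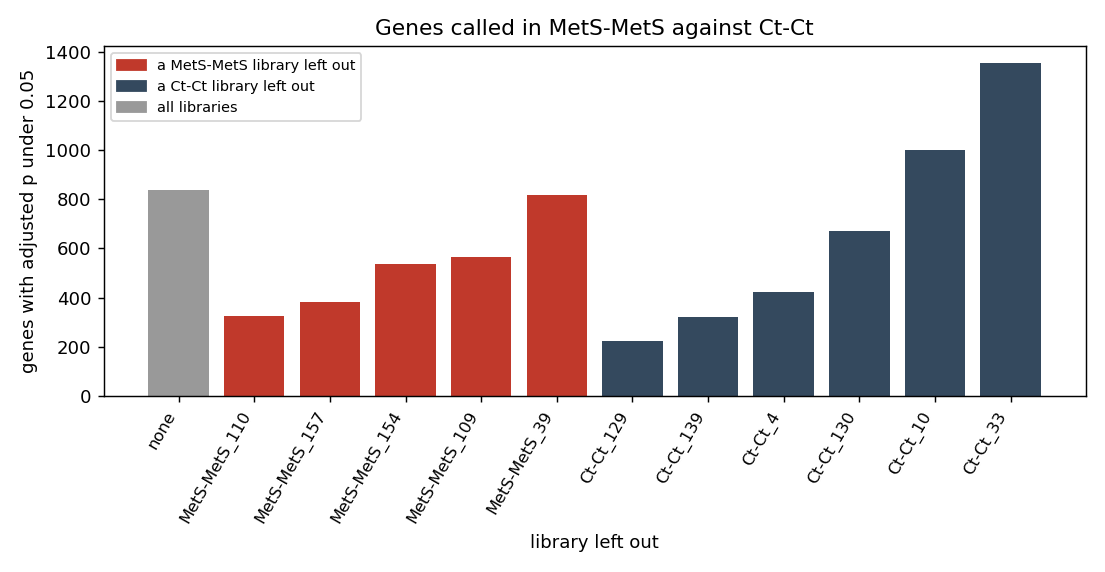
Number of genes with an edgeR adjusted p under 0.05 in MetS-MetS against Ct-Ct (vertical axis) for all 11 libraries (grey, none left out) and with each MetS-MetS library (red) or Ct-Ct library (dark blue) left out. The count was 836 with all libraries, 326 without MetS-MetS_110 and 224 without Ct-Ct_129, the lowest.

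Genes of fatty acid oxidation were higher as a group in pups exposed at both times. Of 27 measured genes of the pathway, 20 rose and none fell, against 3.06% of all genes called higher, and all 27 had a positive log2 fold change. The median over the pathway was 0.74 on the log2 scale, where that over all genes was -0.0038. Without MetS-MetS_110 there were 17 risen genes with a median of 0.79. Across single libraries left out the count ran between 13 and 23, with the 13 found without Ct-Ct_129. Without both Ct-Ct_129 and Ct-Ct_139 only 1 of the 27 passed the test, while the median was 0.64, and without both MetS-MetS_39 and MetS-MetS_110 6 passed, with a median of 0.75. In 18 of the 27 genes every MetS-MetS library was above every Ct-Ct library, which held in that direction for 2.44% of all genes.

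Among the 6 higher genes with the smallest p were 2 PPAR-alpha targets whose start-site windows are shown here because they had the smallest p of that list. The windows are RefSeq sequence of build GRCm38.p6, from 250 bases before to 50 bases after the start, 5′ to 3′ on the strand of the gene. Capitals mark a sterol regulatory element (SRE, TCACNCCAC) at Ucp2 (chr7:100493108-100493407, plus strand), and an E-box (CACGTG) followed by an NF-Y box (CCAAT) at Aldh3a2 (chr11:61267137-61267436, minus strand).
Ucp2: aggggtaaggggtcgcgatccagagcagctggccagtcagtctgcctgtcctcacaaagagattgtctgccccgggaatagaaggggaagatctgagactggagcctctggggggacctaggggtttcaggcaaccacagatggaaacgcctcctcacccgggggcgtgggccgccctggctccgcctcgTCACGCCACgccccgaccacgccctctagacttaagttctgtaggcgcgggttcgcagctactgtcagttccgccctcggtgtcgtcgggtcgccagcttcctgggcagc
Aldh3a2: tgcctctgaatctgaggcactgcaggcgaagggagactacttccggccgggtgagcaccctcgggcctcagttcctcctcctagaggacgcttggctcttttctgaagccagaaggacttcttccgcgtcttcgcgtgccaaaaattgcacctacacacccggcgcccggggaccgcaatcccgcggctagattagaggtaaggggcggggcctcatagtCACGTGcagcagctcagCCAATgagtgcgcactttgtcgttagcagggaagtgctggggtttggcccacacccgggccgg
Motifs were searched on both strands. Of all 32851 windows 1.24% held the SRE, 7.15% the E-box and 37.4% the NF-Y box, of 25 windows of the PPAR-alpha target list 1, 5 and 12 held them, and of 24 windows at oxidation genes 8.33%, 0.0% and 45.8% did. A repeat of AGGTCA with 1 base between its copies, a form of the PPAR element, was in 0.0396% of all windows and in 0 windows of either list. These matches describe the letters only.

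Ucp2 encodes a mitochondrial carrier of the uncoupling protein family and had the smallest p of all genes tested. It had 62.5, 51.1, 59.7, 59.4 and 55.3 CPM in MetS-MetS_39, MetS-MetS_109, MetS-MetS_110, MetS-MetS_154 and MetS-MetS_157 (the order used below), and in Ct-Ct the lowest, median and highest values were 23.8, 32.1 and 36.0 CPM. The groups did not overlap, and Ucp2 rose with a log2 fold change of 0.88 ± 0.11 (SE; edgeR adjusted p = 0.000266) and of 0.87 without MetS-MetS_110 (adjusted p = 0.0016). Aldh3a2, the fatty aldehyde dehydrogenase, had 324, 349, 364, 434 and 351 CPM in MetS-MetS, and 113, 138 and 218 CPM as lowest, median and highest in Ct-Ct. All MetS-MetS libraries were above all Ct-Ct libraries, with a log2 fold change of 1.28 ± 0.20 (edgeR adjusted p = 0.00257; 0.00515 without MetS-MetS_110).

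The entry step and the spiral of mitochondrial oxidation showed the same direction. Cpt1a, the carnitine palmitoyltransferase that controls entry of long-chain fatty acids into mitochondria, had 903, 805, 846, 940 and 1090 CPM in MetS-MetS, and 357, 497 and 672 CPM as lowest, median and highest in Ct-Ct. The lowest values belonged to Ct-Ct_129 and Ct-Ct_139, the groups did not overlap, and the log2 fold change was 0.90 ± 0.19 (edgeR adjusted p = 0.012; 0.0211 without MetS-MetS_110). Without both of those Ct-Ct libraries it was 0.74 with an adjusted p of 0.106. Decr1, the dienoyl-CoA reductase needed for unsaturated fatty acids, had 278, 194, 197, 232 and 186 CPM in MetS-MetS, and 95.9, 116 and 151 CPM as lowest, median and highest in Ct-Ct. It rose with a log2 fold change of 0.88 ± 0.14 (edgeR adjusted p = 0.0036; 0.00515 without MetS-MetS_110) and stayed called without Ct-Ct_129 and Ct-Ct_139 (adjusted p = 0.0456). Decr2, its peroxisomal relative, Cpt2, the inner-membrane carnitine transferase, and Hadh, a hydroxyacyl-CoA dehydrogenase, rose by log2 fold changes of 0.95 ± 0.17, 0.91 ± 0.17 and 0.70 ± 0.13. These 3 genes kept their call with any of the 11 libraries left out. Members that did not pass include Acadvl at 0.22 ± 0.11, Etfa at 0.032 ± 0.086 and Ehhadh, the peroxisomal bifunctional enzyme, at 1.28 ± 0.42. Ehhadh had 1520 CPM in MetS-MetS_39 and a median of 270 CPM over MetS-MetS, against a median of 221 CPM and a highest value of 271 CPM in Ct-Ct.

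**Figure D2:**
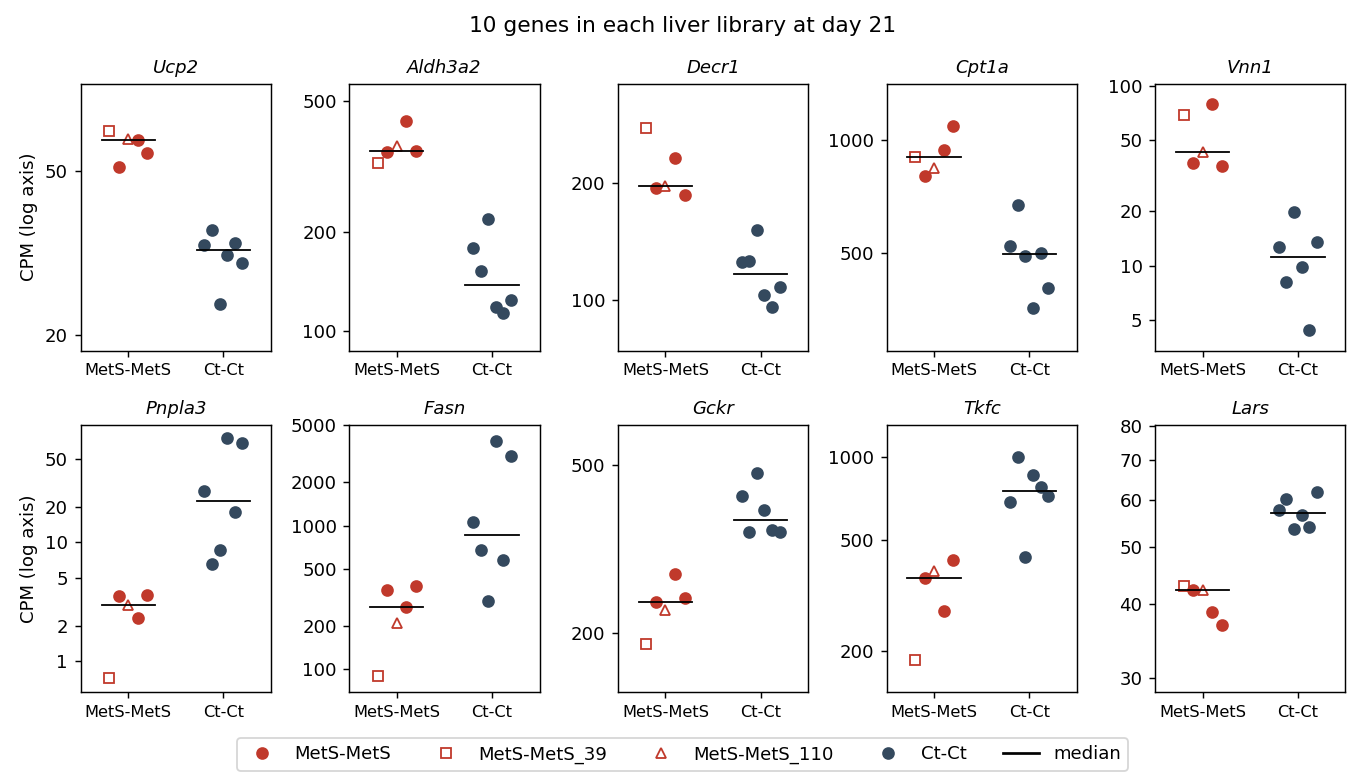
CPM on log axes in each MetS-MetS library (red, left) and each Ct-Ct library (dark blue, right) for 10 genes, with the median as a line; the open square is MetS-MetS_39 and the open triangle MetS-MetS_110. The groups do not overlap in the 5 genes of the upper row, nor in Pnpla3, Gckr, Tkfc and Lars. Fasn overlaps, with 90.7 to 383 CPM in MetS-MetS and 298 to 3850 CPM in Ct-Ct.

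The list of ketone body synthesis and other PPAR-alpha targets had 12 of 28 measured genes risen and none fallen, against 3.06% of all genes called higher, and a median of 0.86 on the log2 scale. Without MetS-MetS_110 the count was 9. It was 5 without Ct-Ct_129, 6 without Ct-Ct_139, 7 without Ct-Ct_130 and 6 without MetS-MetS_157. Without both Ct-Ct_129 and Ct-Ct_139 it was 2, with a median of 0.81, and without both MetS-MetS_39 and MetS-MetS_110 it was 3, with a median of 0.69. Vnn1, the pantetheinase vanin, had 68.6, 37.4, 43.0, 79.1 and 36.0 CPM in MetS-MetS, and 4.37, 11.2 and 19.8 CPM as lowest, median and highest in Ct-Ct. The groups did not overlap, and it rose 4.65-fold (log2 fold change 2.22 ± 0.50, edgeR adjusted p = 0.0175; 0.0303 without MetS-MetS_110). Acot1, a cytosolic acyl-CoA thioesterase, had 89.6, 9.58, 6.43, 19.3 and 9.29 CPM in MetS-MetS, and 1.72, 2.38 and 3.92 CPM as lowest, median and highest in Ct-Ct. Every MetS-MetS library was above Ct-Ct, but the size of the difference leaned on MetS-MetS_39: the log2 fold change was 3.35 ± 0.66 (edgeR adjusted p = 0.0108) with it and 2.08 without it (adjusted p = 0.0219). Acot1 to Acot4 are close copies in the genome, as are the Cyp4a genes, and the sources used here do not say how reads with several matches were counted, so their separate levels are uncertain.

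Cyp4a10, a fatty acid omega-hydroxylase and classical PPAR-alpha target, had 2640, 120, 100, 556 and 239 CPM in MetS-MetS, and 29.3, 112 and 193 CPM as lowest, median and highest in Ct-Ct. The groups overlapped. Its log2 fold change was 2.88 ± 0.82 (edgeR adjusted p = 0.0429) with all libraries and 1.35 without MetS-MetS_39 (adjusted p = 0.229). Cyp4a14, its neighbour in the family, chosen after its values were seen, followed the same pattern, with 5930 CPM in MetS-MetS_39, 215 to 1010 CPM in the other 4 and 59.5 to 573 CPM in Ct-Ct. Several PPAR-alpha targets that respond to fasting did not pass: Fgf21 had a log2 fold change of -0.16 ± 0.80, Pdk4 of 0.26 ± 0.60 and Ppara itself of 0.37 ± 0.13 (adjusted p = 0.0808).

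**Figure D3:**
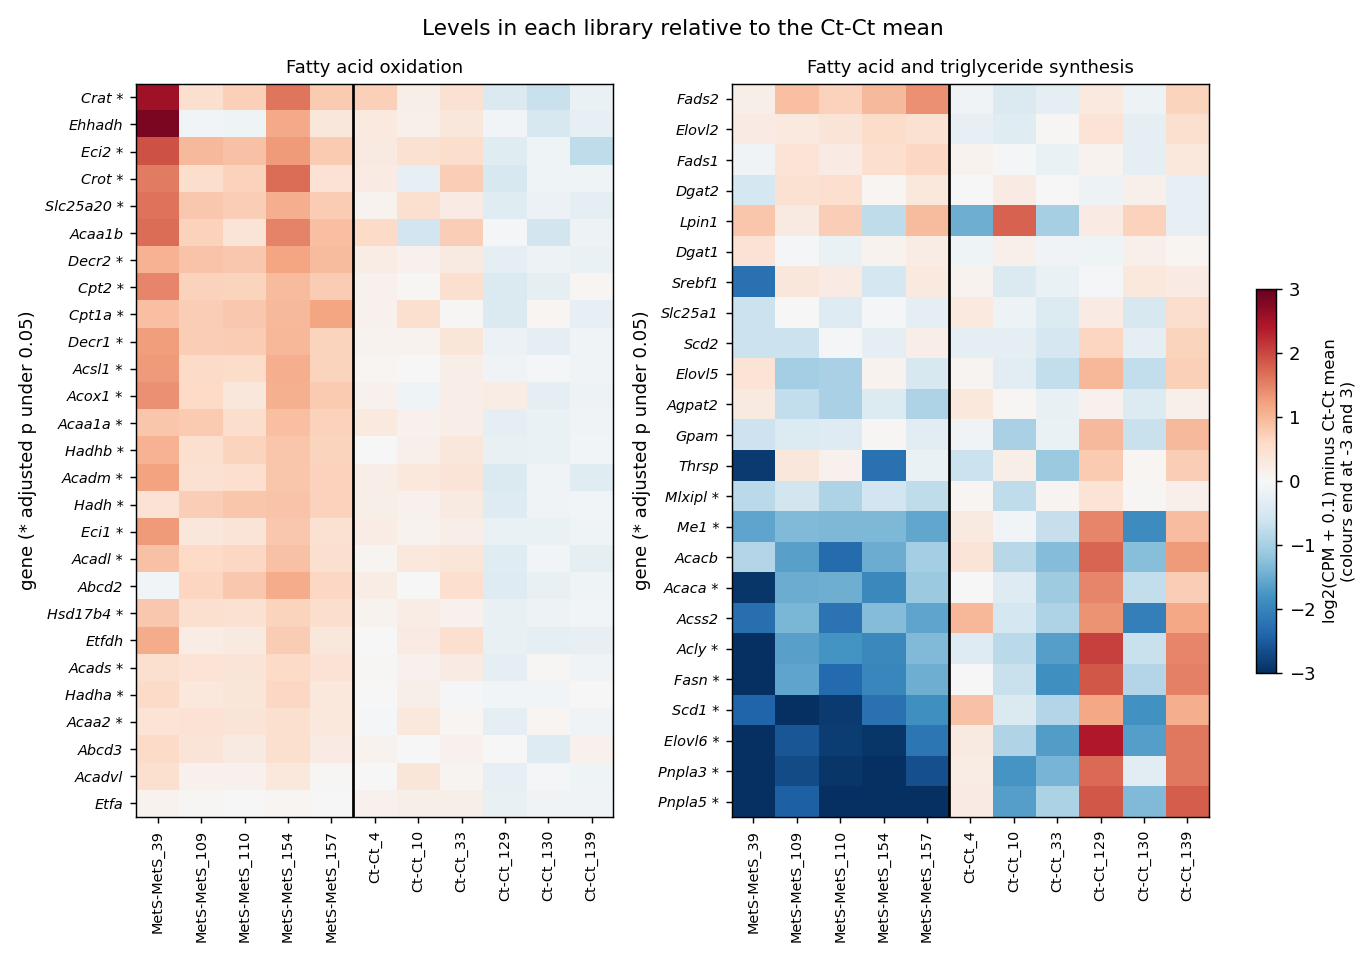
Level of each measured gene of fatty acid oxidation (left panel) and of fatty acid and triglyceride synthesis (right panel) in the 5 MetS-MetS and 6 Ct-Ct libraries, as log2(CPM + 0.1) minus the Ct-Ct mean, with colours ending at -3 and 3 and asterisks on genes with an adjusted p under 0.05. Most oxidation genes are above the Ct-Ct mean in all 5 MetS-MetS libraries, while the synthesis genes at the bottom are low in MetS-MetS and highest in Ct-Ct_129 and Ct-Ct_139.

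Across the 4 groups the oxidation genes were ordered. In 25 of the 27 genes the MetS-MetS mean was the highest of the 4 group means and the Ct-Ct mean the lowest, an order found in 13.3% of all genes tested. The median over the 27 genes of the log2 ratio of group means to Ct-Ct was 0.74 in MetS-MetS, 0.41 in Ct-MetS and 0.27 in MetS-Ct. Against each exposure alone the differences were smaller. The median log2 fold change of the 27 genes was 0.31 for MetS-MetS over Ct-MetS, with none called, and 0.45 for MetS-MetS over MetS-Ct, with only Decr1 called (0.68 ± 0.14, edgeR adjusted p = 0.0389). All of these comparisons share the MetS-MetS libraries.

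**Figure D4:**
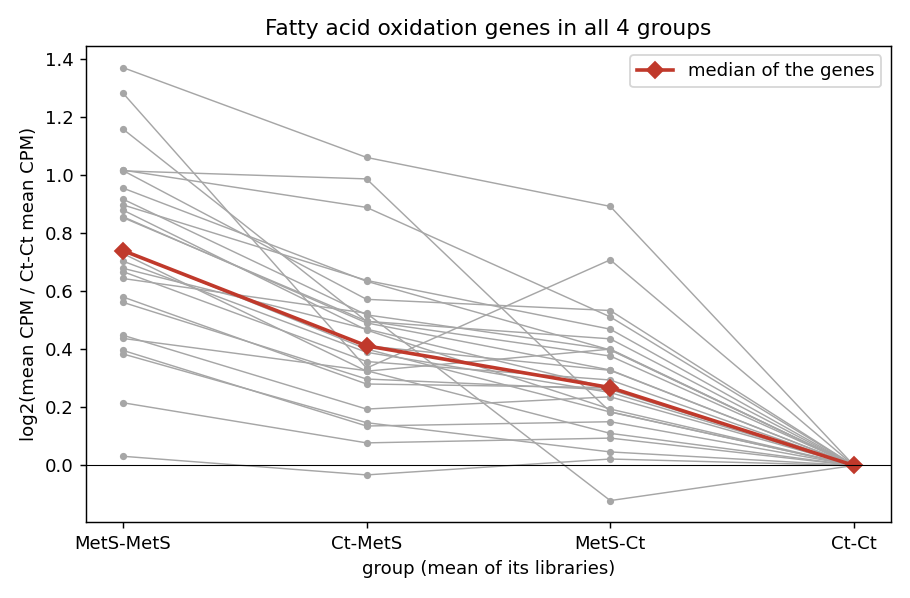
Log2 ratio of each group's mean CPM to the Ct-Ct mean for the 27 measured oxidation genes (grey lines, 1 per gene) and their median (red), by group. The median is 0.74 in MetS-MetS, 0.41 in Ct-MetS and 0.27 in MetS-Ct, with Ct-Ct at 0.0 by construction.

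Part of the transcripts for fatty acid and triglyceride synthesis fell in pups exposed at both times. Of 24 measured genes 9 fell and none rose, against 2.72% of all genes called lower. The median was -0.58 on the log2 scale, and 6 of the 24 had a positive log2 fold change. In 5 of the 24 every MetS-MetS library was below every Ct-Ct library, which held for 1.97% of all genes. The count of 9 was 3 without MetS-MetS_110, 2 without Ct-Ct_129, 3 without Ct-Ct_139, 3 without MetS-MetS_154, 3 without MetS-MetS_157 and 5 without MetS-MetS_109. Without both Ct-Ct_129 and Ct-Ct_139, and without both MetS-MetS_39 and MetS-MetS_110, it was 0, with medians of -0.32 and -0.61. The 3 genes called without MetS-MetS_110 were Pnpla3, Acaca and Mlxipl. The fall was not shown to be particular to exposure at both times. Summed levels were 7480 to 10800 CPM in MetS-MetS and 8050 to 12200 CPM in Ct-MetS. They were 4310 to 25800 CPM in MetS-Ct and 9390 to 40600 CPM in Ct-Ct. Between MetS-MetS and Ct-MetS no gene of the list passed the edgeR test, and the list median was -0.24. Nor did any pass between MetS-MetS and MetS-Ct, where that median was -0.39.

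The start-site windows of Pnpla3 (chr15:84167566-84167865, plus strand), which had the largest fall among genes averaging 50 counts or more that kept their call without MetS-MetS_110, and of Fasn (chr11:120824498-120824797, minus strand), the fatty acid synthase, are shown to the same scheme, and capitals mark the NF-Y box, read as CCAAT or, on the other strand, ATTGG. Those 2 boxes overlap at 1 place in Fasn.
Pnpla3: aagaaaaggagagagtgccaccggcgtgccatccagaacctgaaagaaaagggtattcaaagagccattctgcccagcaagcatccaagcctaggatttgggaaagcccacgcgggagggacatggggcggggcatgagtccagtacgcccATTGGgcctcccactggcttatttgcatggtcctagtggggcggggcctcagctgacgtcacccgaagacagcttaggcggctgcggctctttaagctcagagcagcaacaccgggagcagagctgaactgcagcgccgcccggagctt
Fasn: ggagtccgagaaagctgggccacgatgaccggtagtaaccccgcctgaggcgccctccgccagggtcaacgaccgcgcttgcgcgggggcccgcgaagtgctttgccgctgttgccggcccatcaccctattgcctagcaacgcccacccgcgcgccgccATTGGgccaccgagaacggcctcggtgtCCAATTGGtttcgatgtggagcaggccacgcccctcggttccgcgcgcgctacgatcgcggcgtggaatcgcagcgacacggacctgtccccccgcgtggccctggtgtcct
The NF-Y box was in 55.2% of 29 windows of the synthesis list and 77.3% of 22 windows of cholesterol genes, against 37.4% of all windows. The E-box that ChREBP elements contain was in 17.2% and 18.2% of these windows, against 7.15% of all.

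Pnpla3, a lipase of lipid droplets whose gene is a target of SREBP-1c, had 0.717, 3.51, 2.97, 2.31 and 3.61 CPM in MetS-MetS, and 6.64, 22.4 and 75.2 CPM as lowest, median and highest in Ct-Ct. The groups did not overlap, although Ct-Ct itself spanned a wide range. The log2 fold change was -3.71 ± 0.82 (edgeR adjusted p = 0.0168) with all libraries, -3.76 without MetS-MetS_110 (adjusted p = 0.0399) and -2.54 without Ct-Ct_129 and Ct-Ct_139 (adjusted p = 0.13). Acaca, the acetyl-CoA carboxylase that commits carbon to fatty acids, had 44.0, 118, 119, 86.7 and 153 CPM in MetS-MetS, and 159, 289 and 916 CPM as lowest, median and highest in Ct-Ct. It fell 3.84-fold (log2 fold change -1.94 ± 0.46, edgeR adjusted p = 0.0202; 0.0455 without MetS-MetS_110), without overlap, and its adjusted p was 0.0589 without Ct-Ct_129.

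Fasn had 90.7, 354, 210, 271 and 383 CPM in MetS-MetS, and 298, 866 and 3850 CPM as lowest, median and highest in Ct-Ct. Scd1, the stearoyl-CoA desaturase, had 1940, 1270, 1410, 2190 and 2880 CPM in MetS-MetS, and 2910, 13300 and 23000 CPM as lowest, median and highest in Ct-Ct. In both genes the lower Ct-Ct libraries came close to MetS-MetS or into its range, and the calls made with all libraries (edgeR adjusted p = 0.0352 and 0.0307) were lost without MetS-MetS_110 (0.0826 and 0.0771), at nearly the same log2 fold changes of -2.52 and -2.69. Elovl6, the elongase that follows fatty acid synthase, had 5.65, 35.0, 28.7, 27.3 and 46.3 CPM in MetS-MetS, and 64.5, 180 and 1090 CPM as lowest, median and highest in Ct-Ct, and its call was likewise lost (edgeR adjusted p = 0.0278 with all libraries, 0.0673 without MetS-MetS_110).

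Of the transcription factors of the pathway Mlxipl fell, while Srebf1 was not called. Srebf1, whose measured count does not separate its isoforms, had 53.4, 321, 299, 175 and 311 CPM in MetS-MetS, and 187, 260 and 317 CPM as lowest, median and highest in Ct-Ct. Only MetS-MetS_39 and MetS-MetS_154 were below Ct-Ct, and the log2 fold change was -0.15 ± 0.31 (edgeR adjusted p = 0.81). Mlxipl had 185, 221, 170, 218 and 192 CPM in MetS-MetS, and 191, 340 and 431 CPM as lowest, median and highest in Ct-Ct. It fell by 0.75 on the log2 scale (SE 0.15, edgeR adjusted p = 0.0105; 0.0266 without MetS-MetS_110), with overlap at 1 Ct-Ct library, Ct-Ct_10. Of 25 measured genes of cholesterol synthesis and uptake none passed the edgeR test or DESeq2. An unadjusted edgeR p under 0.05 was found for 4 of the 25, and for 3528 of all 14466 genes. In 23 of the 25 the log2 fold change was negative, with a median of -0.54. Insig1, a SREBP target, was among them at -1.48 ± 0.56 (adjusted p = 0.109).

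Gckr, Khk and Tkfc, which act where glucose and fructose enter metabolism, fell, while most genes of glucose metabolism were not called. Of all genes 2.72% were called lower and 3.06% higher. Of 28 measured genes of glucose, fructose and glycogen handling, 4 fell and 1 rose, with a median log2 fold change of -0.19. Without MetS-MetS_110, Ct-Ct_139, MetS-MetS_154 or MetS-MetS_157, each left out alone, 3 were called, and without Ct-Ct_129 2 were. Only 1 was called without both Ct-Ct_129 and Ct-Ct_139, or without both MetS-MetS_39 and MetS-MetS_110. Gckr, the regulatory protein that holds glucokinase in the nucleus, had 188, 236, 226, 276 and 242 CPM in MetS-MetS, and 346, 371 and 479 CPM as lowest, median and highest in Ct-Ct. The groups did not overlap, and it fell 1.67-fold (log2 fold change -0.74 ± 0.11, edgeR adjusted p = 0.00257; 0.00661 without MetS-MetS_110). Its call was the same without Ct-Ct_129 and Ct-Ct_139 (adjusted p = 0.0131).

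Khk, the ketohexokinase that phosphorylates fructose, had 381, 409, 399, 333 and 371 CPM in MetS-MetS, and 530, 804 and 941 CPM as lowest, median and highest in Ct-Ct. Tkfc, the triose kinase that acts 2 steps further on, had 185, 365, 388, 279 and 426 CPM in MetS-MetS, and 437, 751 and 1000 CPM as lowest, median and highest in Ct-Ct. Neither gene overlapped between groups. The log2 fold changes were -1.01 ± 0.24 for Khk (edgeR adjusted p = 0.0198; 0.0422 without MetS-MetS_110) and -1.19 ± 0.26 for Tkfc (adjusted p = 0.0165; 0.0293 without MetS-MetS_110). Khk had an adjusted p of 0.0519 without Ct-Ct_129. Pups exposed only while nursed had means of 315 ± 124 CPM for Khk and 303 ± 107 CPM for Tkfc (SD, n = 6). MetS-MetS over Ct-MetS was at 0.26 ± 0.23 on the log2 scale for Khk and 0.12 ± 0.26 for Tkfc, and neither passed the test (edgeR adjusted p = 0.593 and 0.854).

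A small group of genes that serve amino acid supply and protein synthesis fell. Of all genes 2.72% were called lower. Of 20 measured cytosolic aminoacyl-tRNA synthetases, which load amino acids onto transfer RNA, 3 fell (Lars, Gars and Mars). In 18 of them the log2 fold change was negative, with a median of -0.21 over the 20. The same count of calls was found without MetS-MetS_110, and 7 were called without Ct-Ct_33. Without both Ct-Ct_129 and Ct-Ct_139, and without both MetS-MetS_39 and MetS-MetS_110, 1 was called. Lars, the leucine enzyme, had 42.9, 42.2, 42.3, 38.8 and 36.9 CPM in MetS-MetS, and 53.6, 57.1 and 61.8 CPM as lowest, median and highest in Ct-Ct. These values were tight within each group and did not overlap, with a log2 fold change of -0.50 ± 0.069 (edgeR adjusted p = 0.0013; 0.00267 without MetS-MetS_110). Of 25 genes of the ATF4 response, the programme that cells run on amino acid shortage, 2 fell, against 2.72% of all genes called lower. They were Asns, asparagine synthetase, and Psph, the last enzyme of serine synthesis. Asns had 4.57, 4.93, 6.74, 3.47 and 4.54 CPM in MetS-MetS, and 8.57, 9.83 and 12.0 CPM as lowest, median and highest in Ct-Ct. It fell 2.07-fold without overlap (log2 fold change -1.05 ± 0.19, edgeR adjusted p = 0.00724; 0.00515 without MetS-MetS_110), and Psph fell by 0.96 on the log2 scale (SE 0.20, adjusted p = 0.012). The median of the 25 genes was -0.07, so the list as a whole stood near all genes.

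The Asns window (chr6:7693160-7693459, minus strand, RefSeq GRCm38.p6) is shown because it holds, in capitals, the amino acid response element TGATGNAAN through which ATF4 is known to act on this gene.
Asns: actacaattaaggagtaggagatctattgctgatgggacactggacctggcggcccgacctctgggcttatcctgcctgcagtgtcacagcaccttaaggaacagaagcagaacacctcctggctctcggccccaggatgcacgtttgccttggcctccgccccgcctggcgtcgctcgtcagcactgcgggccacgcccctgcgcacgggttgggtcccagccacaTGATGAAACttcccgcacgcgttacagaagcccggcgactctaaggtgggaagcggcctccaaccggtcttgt
This element was in 28.6% of 28 windows of the ATF4 list and in 3.95% of all windows.

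Markers of Kupffer cells and macrophages were higher. Of 25 measured markers 11 rose and none fell, against 3.06% of all genes called higher, all 25 had a positive log2 fold change, and the median was 0.44. Without MetS-MetS_110 10 rose, with a median of 0.52. The count was 3 without Ct-Ct_129, 5 without Ct-Ct_139, 4 without MetS-MetS_157 and 6 without MetS-MetS_39. Without both Ct-Ct_129 and Ct-Ct_139 none was called, with a median of 0.37, and without both MetS-MetS_39 and MetS-MetS_110 4 were, with a median of 0.39. Cd68, a lysosomal protein of macrophages, had 15.1, 14.1, 10.6, 12.9 and 17.1 CPM in MetS-MetS, and 8.29, 8.88 and 9.56 CPM as lowest, median and highest in Ct-Ct. Adgre1, which encodes the macrophage antigen F4/80, had 38.2, 32.9, 30.0, 35.0 and 47.2 CPM in MetS-MetS, and 19.7, 24.3 and 28.8 CPM as lowest, median and highest in Ct-Ct. Neither overlapped, with log2 fold changes of 0.65 ± 0.13 for Cd68 (edgeR adjusted p = 0.0107; 0.00861 without MetS-MetS_110) and 0.61 ± 0.13 for Adgre1 (adjusted p = 0.0147; 0.0168 without MetS-MetS_110). Over Ct-MetS 0 of the 25 markers were called, with a median of -0.016, so levels in pups exposed only while nursed were similar. Over MetS-Ct 0 were called, with a median of 0.18. Summed levels were 1100 to 1550 CPM in MetS-MetS, 1150 to 1510 CPM in Ct-MetS, 1120 to 1220 CPM in MetS-Ct and 801 to 1200 CPM in Ct-Ct. In whole liver, more cells of a type and more RNA per cell cannot be told apart.

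Other leukocyte markers gave no calls. None of 15 neutrophil and monocyte genes, 22 lymphocyte genes or 13 MHC class II and dendritic genes passed, and 0, 3 and 1 of them had an unadjusted p under 0.05 with edgeR; DESeq2 called 0 in each list. The interferon response had 0 of 27 genes called, 1 with an unadjusted p under 0.05 and 0 with DESeq2. Of all 14466 genes 3528 had an unadjusted p under 0.05 with edgeR. Il1rn, the secreted antagonist of the interleukin-1 receptor, was 1 of the 8 risen genes of largest fold change when predicted genes, those averaging under 50 counts and those not called without MetS-MetS_110 were left out. It had 8.15, 8.58, 7.18, 10.9 and 12.6 CPM in MetS-MetS, and 1.04, 1.96 and 4.74 CPM as lowest, median and highest in Ct-Ct. The groups did not overlap, and it rose 4.04-fold (log2 fold change 2.02 ± 0.42, edgeR adjusted p = 0.0122; 0.0196 without MetS-MetS_110). The Ct-MetS mean of 9.39 ± 5.74 CPM (SD, n = 6) was close to that of MetS-MetS, and the MetS-Ct mean was 2.91 ± 1.51 CPM. Of 25 lysosomal genes, many of them abundant in macrophages as well as hepatocytes, 7 rose and none fell, against 3.06% of all genes called higher. Without MetS-MetS_110 5 rose. Ctsb, the protease cathepsin B, had 715, 777, 748, 766 and 885 CPM in MetS-MetS, and 517, 604 and 642 CPM as lowest, median and highest in Ct-Ct (log2 fold change 0.40 ± 0.089, edgeR adjusted p = 0.0162, and 0.0295 without MetS-MetS_110). The lysosomal count was 3 without Ct-Ct_129, 4 without Ct-Ct_139, 4 without MetS-MetS_157, 11 without Ct-Ct_33, 0 without both Ct-Ct_129 and Ct-Ct_139, and 2 without both MetS-MetS_39 and MetS-MetS_110.

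Of 22 measured erythroid genes 8 rose and none fell, against 3.06% of all genes called higher. The count was 7 without MetS-MetS_110 and 6 to 10 with any single library left out. It was 1 without both Ct-Ct_129 and Ct-Ct_139 and 3 without both MetS-MetS_39 and MetS-MetS_110, with a median log2 fold change of 0.41 in each case. The 8 were genes of the red cell membrane, its skeleton and blood group antigens, among them Slc4a1, Rhag, Rhd, Kel, Ermap, Epb42 and Ank1, all at low levels. Rhag and Rhd averaged 10.7 and 10.4 counts over the 23 libraries, just above the cutoff of 10 for testing. Their means were 0.168 and 0.139 CPM in Ct-Ct and 0.838 and 0.759 CPM in MetS-MetS. They thus entered the test only through groups where they were high. The same holds for Kel, which averaged 16.2 counts over the 23 libraries. Its means were 0.228 CPM in Ct-Ct, 0.221 CPM in MetS-Ct and 1.22 CPM in MetS-MetS. Epb42 was likewise near the floor in Ct-Ct. These genes add no separate support to the count of 8. Slc4a1, the band 3 anion exchanger, had 9.45, 8.20, 6.74, 5.74 and 12.4 CPM in MetS-MetS, and 1.76, 3.36 and 4.65 CPM as lowest, median and highest in Ct-Ct. It rose 2.63-fold without overlap (log2 fold change 1.39 ± 0.30, edgeR adjusted p = 0.0149; 0.0231 without MetS-MetS_110). Hemgn, a nuclear protein of red cell precursors outside the list, rose 9.52-fold at a low level: its values were 1.93, 0.948, 0.433, 1.01 and 2.30 CPM in MetS-MetS, and 0.0353, 0.108 and 0.347 CPM as lowest, median and highest in Ct-Ct (log2 fold change 3.25 ± 0.51, edgeR adjusted p = 0.00308; 0.00222 without MetS-MetS_110). It averaged 15.4 counts over the 23 libraries, with means of 0.137 CPM in Ct-Ct and 0.177 CPM in MetS-Ct. Hemgn too thus entered the test only through groups where it was high, and adds no separate support.

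Haemoglobin and haem synthesis genes were not called. Hba-a1, an alpha-globin with a near-identical copy, ranged over 90.4 to 166 CPM in MetS-MetS and 59.6 to 198 CPM in Ct-Ct. The MetS-MetS range lay within that of Ct-Ct, with a log2 fold change of 0.17 ± 0.27 (edgeR adjusted p = 0.747). Alas2, the erythroid enzyme that starts haem synthesis, was at 0.14 ± 0.20 (adjusted p = 0.722) and Klf1, a transcription factor of red cell precursors, at -0.094 ± 0.24 (adjusted p = 0.851). Summed over the 23 genes of the list that were found, tested or not, levels were 930 to 1280 CPM in MetS-MetS and 692 to 1330 CPM in Ct-Ct. Globins dominate these sums.

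Among the remaining genes chosen for size or p, Smoc2, a secreted matrix protein, had 13.4, 18.9, 27.6, 15.2 and 28.4 CPM in MetS-MetS, and 38.9, 58.0 and 72.2 CPM as lowest, median and highest in Ct-Ct. It fell 2.79-fold without overlap (log2 fold change -1.48 ± 0.22, edgeR adjusted p = 0.00257; 0.00267 without MetS-MetS_110). Of 39 genes of collagens, matrix and TGF-beta signalling, Bgn rose and Smoc2 fell, with a median of 0.032. Of all genes 3.06% were called higher and 2.72% lower. Without MetS-MetS_110 Bgn was not called (edgeR adjusted p = 0.0743), and Tgfb2, a TGF-beta ligand, was called lower (adjusted p = 0.0389, against 0.087 with all libraries). Col1a1, the main fibrillar collagen, averaged 54.6 ± 17.2 CPM in MetS-MetS and 64.4 ± 43.6 CPM in Ct-Ct (log2 fold change -0.24 ± 0.37, adjusted p = 0.743), and Tgfb1 13.7 ± 1.68 CPM in MetS-MetS and 13.0 ± 1.65 CPM in Ct-Ct (0.079 ± 0.11, adjusted p = 0.713).

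P2ry1, a receptor for extracellular ADP, rose by 1.27 ± 0.21 on the log2 scale (edgeR adjusted p = 0.00498; 0.0115 without MetS-MetS_110). Plekha1, an adaptor that binds membrane phosphoinositides, fell by 0.71 (SE 0.11, adjusted p = 0.00257), and Snapc3 and Smarcd1, subunits of a small nuclear RNA transcription complex and of the SWI/SNF remodelling complex, fell by 0.54 and 0.82. Together with Ucp2, Aldh3a2, Hemgn, Decr1, Serpina3g, Lars, Gckr and Smoc2 these are the 12 genes with the smallest p, 6 in each direction, with predicted genes left out. All 12 were called with each of the 11 libraries left out and also without Ct-Ct_129 and Ct-Ct_139 together. Of them Hemgn entered the test only through groups where it was high.

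Genes that follow the day were spread widely. Of 20 genes of the circadian clock and its output only Wee1, a cell cycle kinase under clock control, was called, against 5.78% of all genes. The median log2 fold change of the 20 genes was 0.56. The count of calls among them was 4 without MetS-MetS_39 and 3 without Ct-Ct_10. Wee1 had 10.2, 30.0, 28.6, 14.7 and 24.2 CPM in MetS-MetS, and 6.56, 7.60 and 8.81 CPM as lowest, median and highest in Ct-Ct (log2 fold change 1.51 ± 0.27, edgeR adjusted p = 0.00724; 0.0183 without MetS-MetS_110). Dbp, a transcription factor whose level swings strongly over the day, had 2.78 CPM in MetS-MetS_39 and 71.8 to 267 CPM in the other 4 MetS-MetS libraries, and 9.66, 26.1 and 40.3 CPM as lowest, median and highest in Ct-Ct. In 4 of 5 MetS-MetS libraries it was above all Ct-Ct libraries and in MetS-MetS_39 below them all (log2 fold change 2.45 ± 0.86, edgeR adjusted p = 0.0868; 2.77 and 0.0402 without MetS-MetS_39). The part of sampling time in these results was not tested.

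Other liver functions gave few edgeR calls. In drug metabolism 2 of 31 genes rose, Cyp2c54 and Ahr, against 3.06% of all genes called higher. The median was 0.55, and 27 of the 31 had a positive log2 fold change. An unadjusted edgeR p under 0.05 was found for 16 of the 31, against 3528 of all 14466 genes. DESeq2 called 6 of them, against 9.35% of all genes. Ahr was not called without MetS-MetS_110 (edgeR adjusted p = 0.068), and the count ran between 1 and 7 with single libraries left out, with the 7 found without Ct-Ct_10 or without Ct-Ct_33 and the 1 without MetS-MetS_110, MetS-MetS_154, Ct-Ct_129, Ct-Ct_139 or Ct-Ct_4. Cyp2c54, a cytochrome P450 with close copies, had 65.7, 99.5, 53.9, 76.5 and 63.6 CPM in MetS-MetS, and 9.12, 20.2 and 42.8 CPM as lowest, median and highest in Ct-Ct (log2 fold change 1.68 ± 0.35, edgeR adjusted p = 0.0129; 0.0196 without MetS-MetS_110). Bile acid synthesis and transport had 4 of 24 genes fallen and 1 risen, where 2.72% of all genes were called lower and 3.06% higher. Of the 24, 10 had an unadjusted edgeR p under 0.05 and DESeq2 called 7. Without MetS-MetS_110 1 of the 24 had fallen and none had risen. In all, 1 gene was called also without Ct-Ct_129, Ct-Ct_139, Ct-Ct_4 or MetS-MetS_157, 2 without MetS-MetS_154 or MetS-MetS_39, 3 without Ct-Ct_130 and 8 without Ct-Ct_33. The gene called without MetS-MetS_110 was Slc51b, a subunit of a bile acid exporter, at -1.17 ± 0.28 (edgeR adjusted p = 0.0211; 0.0453 without MetS-MetS_110). Of 21 genes of the growth hormone axis and sex-biased genes, 1 rose and 1 fell, against 3.06% and 2.72% of all genes. In 18 of the 21 the log2 fold change was positive, with a median of 0.31. Stat5b, the transcription factor downstream of the receptor, fell by 0.66 (SE 0.13, edgeR adjusted p = 0.0116, and 0.0294 without MetS-MetS_110). Igfals, the acid-labile subunit that carries IGF1 in blood, rose by 0.85 (SE 0.23, adjusted p = 0.0318, and 0.0751 without MetS-MetS_110). Igf1 was at 0.17 ± 0.18 (adjusted p = 0.598). None of 32 genes of the urea cycle and amino acid breakdown was called by edgeR, and DESeq2 called 1. Among the 32, 5 had an unadjusted edgeR p under 0.05, against 3528 of all 14466 genes.

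Imprinted genes, which include growth regulators of the fetus, showed no call. Of 27 measured, 0 passed edgeR, 7 had an unadjusted p under 0.05, DESeq2 called 1 and the median was -0.011. Of all 14466 genes 3528 had an unadjusted p under 0.05 with edgeR, a share close to that of these 27. Plagl1, a zinc finger factor at the head of a network of imprinted genes, had 7.62, 5.79, 11.0, 7.33 and 9.73 CPM in MetS-MetS, and 5.19, 6.36 and 11.4 CPM as lowest, median and highest in Ct-Ct (log2 fold change 0.15 ± 0.22, edgeR adjusted p = 0.713). H19, an imprinted non-coding RNA, had 246, 287, 299, 287 and 726 CPM in MetS-MetS, and 59.2, 156 and 780 CPM as lowest, median and highest in Ct-Ct (0.44 ± 0.66, adjusted p = 0.732). In both genes the ranges overlapped through most of their width. Igf2 was at -0.45 ± 0.64 and Cdkn1c at 0.28 ± 0.22.

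The highest fold changes of the comparison came from MetS-MetS_110. Krt13, a keratin of squamous epithelium, had 339 CPM in that library and 0.0 to 0.0547 CPM in the other 4 MetS-MetS libraries, and 0.0 to 0.0383 CPM in Ct-Ct. Krt4, its partner, had 271 CPM in MetS-MetS_110 and 0.0 to 0.0361 CPM in the other 4, and 0.0 to 0.0766 CPM in Ct-Ct. Ttn, the giant muscle protein titin, had 114 CPM in that library, 0.164 to 0.285 CPM in the other 4 and 0.077 to 0.691 CPM in Ct-Ct. With all libraries edgeR called 15 of 21 muscle genes and 7 of 14 squamous genes as higher, and without MetS-MetS_110 it called 0 of either, with medians of -0.18 and 0.072. DESeq2 gave no adjusted p to 18 of the 21 and 10 of the 14, and called 0 and 1 of them with all libraries. The plot of list medians gives every list with and without the library.

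**Figure D5:**
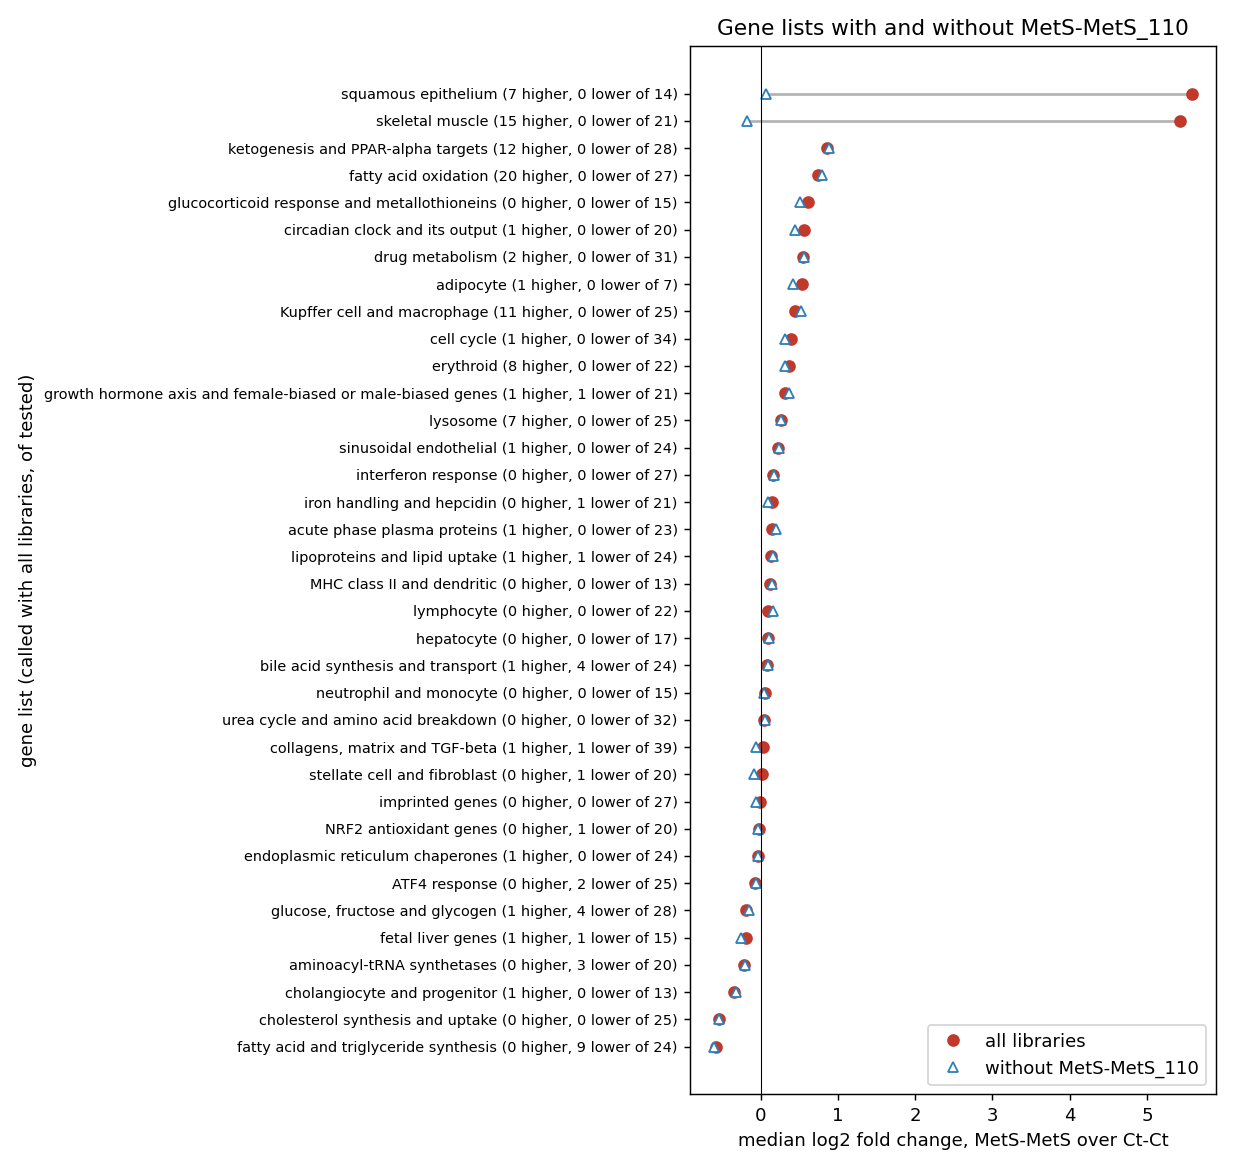
Median log2 fold change of MetS-MetS over Ct-Ct for each gene list with all 11 libraries (red circles) and without MetS-MetS_110 (open blue triangles), with called and tested genes per list in the labels. Squamous epithelium (5.58 and 0.072) and skeletal muscle (5.43 and -0.18) move, while fatty acid oxidation (0.74 and 0.79) and fatty acid and triglyceride synthesis (-0.58 and -0.60) stay close.

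Pups exposed at both times were also set against each exposure alone. Against Ct-MetS edgeR called 0 genes (0.0%) with or without MetS-MetS_110, with 2255 at an unadjusted p under 0.05; limma-voom called 0 and DESeq2 called 73 of the 1846 genes to which it gave an adjusted p (3.95%). Leaving out MetS-MetS_39 gave 31 calls and MetS-MetS_154 1 call. Against MetS-Ct edgeR called 60 genes (0.415%), 37 higher (0.256%) and 23 lower (0.159%), and 10 without MetS-MetS_110 (0.0691%). DESeq2 called 0.945%. The 60 became 158 without MetS-MetS_39, 5 without MetS-Ct_70, 10 without MetS-Ct_97, 17 without MetS-Ct_149, 19 without MetS-Ct_85 and 20 without MetS-Ct_53. With all libraries erythroid genes led this comparison: 12 of 22 rose, against 0.256% of all genes called higher. Their median was 1.39 on the log2 scale for MetS-MetS over MetS-Ct and 0.36 for MetS-MetS over Ct-Ct. With 10 genes called in all without MetS-MetS_110 and 5 without MetS-Ct_70, those 12 calls cannot all have held there. Rhag and Kel, at means of 0.0941 and 0.221 CPM in MetS-Ct, entered the test only through groups where they were high. Slc4a1 had 5.74 to 12.4 CPM in MetS-MetS and 1.09 to 3.20 CPM in MetS-Ct (log2 fold change 2.11 ± 0.31, edgeR adjusted p = 0.0106), and Hemgn 0.433 to 2.30 CPM in MetS-MetS and 0.0387 to 0.302 CPM in MetS-Ct (2.85 ± 0.49, adjusted p = 0.0149). Neither gene overlapped between those groups, but Hemgn entered the test only through groups where it was high. Ucp2, at 51.1 to 62.5 CPM in MetS-MetS and a median of 36.5 CPM in MetS-Ct, was also called (0.65 ± 0.11, adjusted p = 0.014), whereas over Ct-MetS it was at 0.15 ± 0.11 (adjusted p = 0.498).

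Among long non-coding transcripts more fell than rose. Of 1199 tested genes annotated as long non-coding or as awaiting experimental check, 6 rose (0.5%) and 77 fell (6.42%), with a median log2 fold change of -0.35, whereas of 13033 protein-coding genes 436 rose (3.35%) and 309 fell (2.37%). Without MetS-MetS_110 5 of the 1199 rose and 17 fell, and of the 13033 protein-coding genes 206 rose and 97 fell. The share of all genes called lower was then 0.795%. Most of the non-coding calls thus depended on that library. Malat1, an abundant nuclear RNA chosen after its values were seen, had 741, 712, 485, 663 and 734 CPM in MetS-MetS, and 1000, 1130 and 1410 CPM as lowest, median and highest in Ct-Ct. It fell 1.71-fold without overlap (log2 fold change -0.78 ± 0.16, edgeR adjusted p = 0.0113; 0.0295 without MetS-MetS_110). Neat1, another nuclear RNA chosen in the same way, was at -1.13 ± 0.39 (adjusted p = 0.0805). The TMM factors were 0.935 to 0.959 in MetS-MetS and 0.959 to 1.05 in Ct-Ct, and the part of RNA preparation or composition in these values was not tested.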

How the data were processed

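Polyadenylated liver RNA was sequenced with 1 library per pup, from directional libraries per the labels' protocols. The deposited table holds counts of reads per gene made by the authors. The submitters' processing notes name FastQC, STAR, HTSeq and DESeq2, with no versions. Build, annotation and use of strand in counting are not stated there, so genes overlapping on opposite strands are uncertain and no gene coordinates are given. The table is named as normalised, but its values were whole numbers with totals of 16876460 to 34527932 and DESeq2 size factors of 0.623 to 1.42, and were treated as raw counts. Of 49585 genes, 49326 matched a symbol; the rest held 0.0137% of counts.

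Groups follow the treatment in the labels. Library pairs within MetS-MetS and Ct-Ct had correlations of 0.964 to 0.992 and differed beyond sampling noise (chi-square per gene of at least 17.9), so each counts as 1 replicate. The 14466 genes averaging 10 counts or more across the 23 libraries were tested with edgeR 4.0.16 in R 4.3.3 (TMM, robust glmQLFit, glmQLFTest, 1 mean per group, all groups sharing 1 estimate of spread), with Benjamini-Hochberg adjusted p-values under 0.05 called. Standard errors are the size of the log2 fold change over the square root of F. On simulated counts for MetS-MetS against Ct-Ct (14466 genes, 200 changed), edgeR recovered 35.8% of the 1.5-fold, 73.1% of the 2-fold and 97% of the 4-fold changes and made 8 false calls. The counts were drawn independently for each library, with no outlying library and no shared litter. These rates therefore do not measure the error in the real data. Alternatives were DESeq2 1.42.0, limma-voom (limma 3.58.1), other scalings and filters, a fit of the compared groups alone, and leaving out each library.

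The comparison, its 37 gene lists and its tests were chosen with earlier results of these data known. Genes were named by rule: in MetS-MetS against Ct-Ct, leaving out predicted genes, the 8 risen and 8 fallen genes of largest fold change that averaged 50 counts or more and kept their call without MetS-MetS_110; the 6 and 6 with the smallest p; up to 4 per list by smallest p; the 4 that lose most without MetS-MetS_110; the 5 with the smallest p in each comparison with a single exposure; and Plagl1, Igf2, H19, Cdkn1c, Tgfb1, Col1a1, Srebf1, Fasn, Scd1, Pnpla3, Cpt1a, Cd36, Alb and Apob. Other genes named in passing (among them Elovl6, Ehhadh, Slc4a1, Alas2, Klf1, Hba-a1, Fgf21, Igf1, Malat1 and Neat1) were chosen after their values were seen. Gene classes were taken from GENCODE by gene ID. Start-site windows were matched by symbol to RefSeq (GRCm38.p6). Some genes are not reported here.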

Additional observations from a re-analysis of the deposited data

Results flagged for a closer look

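Of 43 genes described library by library, with 86 groups screened, 13 values stood far from the rest of their group by Dixon's test on CPM. Some of these genes were named after their values were seen, such as Cyp4a14, or through MetS-MetS_110, such as Krt13 and Ttn. The nominal rate of about 1 in 20 groups therefore gives no measure of chance for the 13 flagged values. In MetS-MetS_39 there were 5: Acot1 at 89.6 CPM, Cyp4a10 at 2640 CPM, Cyp4a14 at 5930 CPM and Cdkn1a, a cell cycle inhibitor, at 270 CPM were far above the other 4 MetS-MetS libraries, and Igfals, the acid-labile subunit that carries IGF1 in blood, at 81.2 CPM was far below them. Without MetS-MetS_39 Igfals had a log2 fold change of 1.0 (edgeR adjusted p = 0.0154), against 0.85 (adjusted p = 0.0318) with it, and Cdkn1a had -1.19 (adjusted p = 0.336), against 1.45 (adjusted p = 0.344).

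In MetS-MetS_110 Krt13 at 339 CPM and Ttn at 114 CPM were flagged. In MetS-MetS_157 Hamp2, a hepcidin gene, at 3.94 CPM and H19 at 726 CPM were above the other MetS-MetS libraries. Hamp2 was 0.371 to 0.664 CPM in those, and 1.88 to 31.7 CPM in Ct-Ct (log2 fold change -3.57 ± 1.0, edgeR adjusted p = 0.0439; 0.1 without MetS-MetS_110). Among Ct-Ct libraries, Kel in Ct-Ct_33 was 0.616 CPM, Igf2 in Ct-Ct_130 was 26.6 CPM, Ttn in Ct-Ct_10 was 0.691 CPM and Krt13 in Ct-Ct_139 was 0.0383 CPM, where the other Ct-Ct libraries had 0.0. These are values only, and their causes were not tested.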

How the results depend on the processing

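The calls in MetS-MetS against Ct-Ct (836 with all libraries) were 1346 with DESeq2, 501 with limma-voom and 457 with no low-count filter, and within 1.5 times the count under other scaling factors, the filterByExpr filter and a fit of only the 2 groups. Leaving out 1 library gave 224 to 1355. Alternatives chosen after seeing the data gave 103 without MetS-MetS_39 and MetS-MetS_110, and 21 without Ct-Ct_129 and Ct-Ct_139. Against Ct-MetS (0 calls) DESeq2 gave 73, and leaving out 1 library 0 to 31. Against MetS-Ct (60 calls) the counts were 136 with DESeq2, 10 with limma-voom, 20 with no filter, 31 with filterByExpr, 25 with only the 2 groups, 6 without MetS-MetS_39 and MetS-MetS_110, and 5 to 158 with 1 library left out. Fewer samples enter the fits that leave libraries out; otherwise the cause was not tested. Among the genes chosen by rule, log2 fold changes of 6 called ones turned negative without MetS-MetS_110, and those of the same genes and Lor without MetS-MetS_39 and MetS-MetS_110. With 1 library left out Ttn ran between -0.025 and 7.19, Tnnt3 between -0.94 and 8.07, Tnni2 between -0.13 and 6.92, Krt4 between -1.16 and 11.0, Krt15 between -1.21 and 10.35 and Krtdap between -1.21 and 10.39. Without both libraries the values were -0.096 for Ttn, -0.79 for Tnnt3, -0.13 for Tnni2, -0.86 for Krt4, -1.22 for Krt15, -1.22 for Krtdap and -0.52 for Lor. No paired analysis was possible because the animal numbers in the labels are not shared between groups. Depth limits Kel, Rhag, Epb42 and Hemgn, whose medians in Ct-Ct were 0.108 to 0.18 CPM.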
